A study of Mus musculus with 6 samples.

Results

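The B cell receptor (BCR) signalling genes described here are 33 genes for the signalling chains of the receptor, its coreceptors, the kinases and adaptors that act below it, and the receptors and enzymes that restrain it. They were found as the rows of the deposited exon count table whose gene symbol equals a name on a list of 33 symbols, and all 33 were present among the 39017 genes of the table. By role, 5 belong to the receptor and coreceptor, 22 are kinases and adaptors, and 6 are inhibitory. The rule uses no measured value.

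The study asked what Prmt1, a type I protein arginine methyltransferase, does in B cells that have met antigen. Splenic B cells of C57BL6/J mice were grown as induced germinal centre B cells (iGBs): they were plated on 40LB feeder cells, fibroblasts that supply CD40L and BAFF, and given IL-4. The labels place the culture at 3.5 days with 5 ng/ml IL-4, the feeders were then depleted with an antibody to H2K, and total RNA was sequenced after removal of ribosomal RNA with a stranded kit. Control iGBs came from 3 Cg1-cre mice and Prmt1-null iGBs from 3 Cg1-cre Prmt1f/f mice. Each mouse gave 1 library, each group held 1 male (Control 1 and Prmt1-null 3) and 2 females, and the labels give no age. Both groups carried Cre under the Cγ1 locus, which becomes active only after B cells are stimulated, so that the deletion was to follow stimulation. The time of the deletion was not measured in these libraries. No antigen or antibody to the receptor was among the labelled treatments. Prmt1 itself was read at 3965, 3925 and 4838 normalised counts in the Control libraries and at 1745, 1478 and 1478 in the Prmt1-null libraries, 36.9% of the Control mean (adjusted p = 1.11e-05), so Prmt1 transcripts remained.

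On B cells, the surface immunoglobulin is paired with Cd79a and Cd79b, whose tails carry the tyrosine motifs called ITAMs. Antigen binding leads Src family kinases, which the phosphatase CD45 keeps ready, to phosphorylate the ITAMs, and Syk then docks there and drives Btk, the adaptor Blnk, phospholipase C gamma 2, PI3K, Ras and NF-kappaB signalling. The coreceptor complex, which holds CD21 and CD81, lowers the threshold, whereas receptors with inhibitory motifs (ITIMs) recruit the phosphatases SHP-1 and SHIP1. Germinal centre B cells are known for a damped receptor response with strong inhibitory phosphatase activity.

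The sequences upstream of the genes for the complement receptor CD21 (Cr2) and the adaptor Bank1 are shown because these were the members past the threshold set out below. They are the 250 bases before the RefSeq start on GRCm38.p6, 5′ to 3′ on the minus strand, at chr1:195176720-195176969 for Cr2 and at chr3:136326067-136326316 for Bank1. Capitals mark every match to 6 motifs searched on both strands. The motifs were the octamer ATGCAAAT, the Ets motif CCGGAAG, the kappaB motif GGNNNTTCC, the EBF motif CCCNNGGG, the AP-1 motif TGANTCA and the TATA motif TATAAA.
Cr2: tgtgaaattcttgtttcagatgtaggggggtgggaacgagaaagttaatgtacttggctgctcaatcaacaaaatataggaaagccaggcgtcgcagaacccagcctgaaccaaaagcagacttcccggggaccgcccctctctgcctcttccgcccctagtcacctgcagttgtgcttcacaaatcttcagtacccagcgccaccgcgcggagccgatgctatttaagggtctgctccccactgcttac
Bank1: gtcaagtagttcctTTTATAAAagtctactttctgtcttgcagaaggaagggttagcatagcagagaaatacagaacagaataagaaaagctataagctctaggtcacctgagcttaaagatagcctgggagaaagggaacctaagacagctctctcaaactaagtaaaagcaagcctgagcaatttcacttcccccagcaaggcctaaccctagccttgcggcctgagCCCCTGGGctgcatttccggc

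None of the 6 motifs occurred in the Cr2 window. In the Bank1 window an EBF match, CCCCTGGG, lay 21 to 14 bases before the start. A pair of TATA matches on opposite strands, which overlap each other, lay 236 to 229 bases before the start. Upstream windows were available for 28 of the 33 members (all but Cd79b, Lyn, Blk, Malt1 and Nfatc1), in 38 windows. The EBF motif was found in 6 of these 28 members and in 11.8% of 32851 promoter windows of the same length, and the TATA motif in 6 members and 12.4% of the windows. The kappaB motif was found in 7 members against 15.7% of the windows, the AP-1 motif in 2 (Vav3 and Shc1) against 6.75%, the octamer in 2 (Blnk and Prkcb) against 1.6%, and the Ets motif in 0 against 6.91%. Some members have several windows, which raises their chance of a match, and a match is a run of letters and was not tested as a binding site.

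The libraries held 45343250 to 62774232 counts in all, and the members took between 0.970% and 1.06% of them. Members had between 404 and 95765 raw counts in every library, so all 33 passed the filter on low counts and no member lay near the floor of 3 counts, which corresponds to 0.0478 to 0.0662 CPM (counts relative to the library's total) and covers counting error only. The B cell markers Ms4a1, Pax5, Ebf1, Cd74 and Cd37 summed to 8152 to 9187 CPM in the Control libraries and 8847 to 9204 CPM in the Prmt1-null libraries, and of these 0 of 5 passed the threshold. Plasma cell markers summed to 1178 to 1305 and 1330 to 1454 CPM and myeloid markers to 8.98 to 12.3 and 15.1 to 15.7 CPM, each without overlap between groups. Of the myeloid markers C1qa and C1qb were at 0 in every library and Adgre1 passed the threshold, and without Adgre1 the sums overlapped, at 3.53 to 5.27 and 3.73 to 5.53 CPM. Of the plasma cell markers none passed, and without Irf4, the most abundant, the sums were 709 to 765 and 793 to 868 CPM. Feeder fibroblast markers summed to 16.2 to 20.7 and 19.5 to 24.5 CPM over 12 genes, with Postn and Lum at 0. The part of plasma cells, myeloid cells or feeders in the values below was not tested. In bulk RNA, fewer cells of a type and less RNA per cell cannot be told apart.

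The comparison of the genotypes asked whether the BCR signalling genes changed when Prmt1 was deleted. With 2 exceptions they were not called. Cr2 and Bank1 fell in Prmt1-null iGBs, to 71.6% and 80.3% of the Control mean, and 0 members were called higher. A gene was called if its adjusted p was under 0.05 by edgeR's quasi-likelihood test over all 18268 genes tested and its mean normalised count (counts scaled to a common library size) was over 100. By this rule 216 genes (1.18%) were called, 106 higher (0.58%) and 110 lower (0.602%) in Prmt1-null iGBs. Among the 9315 genes counted at least as highly as the lowest member, 2.1% were called, against 2 of 33 members.

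Most members differed little between the genotypes, and the data were precise enough to bound the difference. The 95% interval of the fold change lay within 1.4-fold in either direction (0.49 on the log2 scale) for 31 of 33 members, or 93.9%. The same held for 50.9% of all tested genes, and for 89.6% of those counted at least as highly as the lowest member, so the members' share was close to that of other well-counted genes. Only the intervals of Cr2 and of the inhibitory adaptor Dok3 reached past 1.4-fold. Across the 33 members the median log2 fold change was −0.019 and the median size 0.074, against −0.00082 and 0.14 over all tested genes, while the median standard error (SE) was 0.068 against 0.14 over all genes and 0.087 over the well-counted genes. All tested genes include many with lower counts, and no median size is given here for the well-counted genes alone. An unadjusted p under 0.05 was found for 7 members (21.2%), namely Cr2, Bank1, Dok3, Ptprc, Blk, Cd79b and Vav2, against 13.5% of all genes. The 3 libraries of one group lay wholly above or below those of the other for 6 members (18.2%), against 19.9% of all genes: Cd79b and Vav2 were higher in Prmt1-null iGBs, and Cr2, Ptprc, Bank1 and Dok3 lower.

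**Figure D1:**
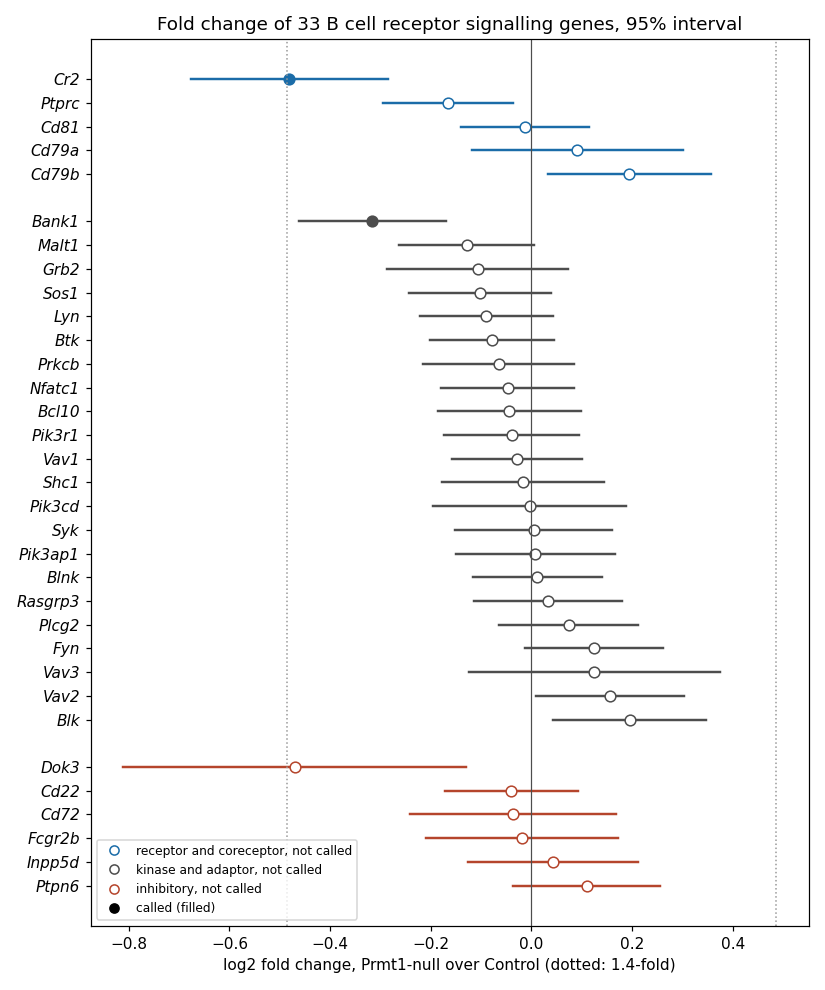
Fitted log2 fold change of each of the 33 genes, Prmt1-null over Control (x axis, log2 scale), with its 95% interval as a line and the genes grouped by role. Filled points mark Cr2 and Bank1, the members past the threshold, and the dotted lines mark 1.4-fold, past which only the intervals of Cr2 and Dok3 reach.

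The receptor and coreceptor group held Cr2, which was called, and the receptor chains, which did not pass the test. Of its 5 genes 1 was called lower and 0 higher, against 1.18% of all genes called, and 3 did not overlap between groups (Cr2, Ptprc and Cd79b), against 19.9% of all genes. The same 3 had an unadjusted p under 0.05, against 13.5% of all genes, and the group's median log2 fold change was −0.012. Cr2 encodes CD21 and, by splicing in the mouse, also CD35, the receptors that bind complement-coated antigen. It was read at 8908, 8316 and 7871 normalised counts in Control libraries 1 to 3 and at 6974, 5167 and 5838 in the Prmt1-null libraries. Every Prmt1-null library lay below every Control library, and the log2 fold change was −0.48 ± 0.091 (SE, n = 3 per group), with a 95% interval from −0.68 to −0.29 and an adjusted p of 0.0241. The call depended on the libraries, since with each library left out in turn the adjusted p ran from 0.0137 to 0.132 and stayed under 0.05 in 2 of 6 fits, while the log2 fold change stayed between −0.60 and −0.38. It was lost without Control 1, Control 2, Prmt1-null 2 or Prmt1-null 3, and kept without Control 3 or Prmt1-null 1. Over all genes these fits called 31 to 340, against 216 with every library. A second identifier with the symbol Cr2, which is not in the annotation used here, had 306 to 400 normalised counts in Control and 296 to 363 in Prmt1-null libraries, overlapping between groups.

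The other coreceptor protein on the list, the tetraspanin Cd81, was nearly level between the groups. Its mean normalised count was 20601 ± 299 for Control and 20424 ± 768 for Prmt1-null iGBs (SD, n = 3 per group), and its log2 fold change was −0.012 with a 95% interval from −0.14 to 0.12. Relative to Cd81, Cr2 was lower in each Prmt1-null library. The ratio of Cr2 to Cd81 counts was 0.428, 0.410 and 0.380 in Control and 0.348, 0.259 and 0.274 in Prmt1-null libraries, so the groups did not overlap. A two-sided exact permutation test gave p = 0.1, the smallest p that 3 against 3 libraries allow, and 0.2 after adjustment over the 8 ratios compared, 1 of which is not reported here. Ratios of counts within a library do not depend on the scaling of libraries, but lengths are not divided out, so only their differences between groups are read.

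The chains that signal for the receptor were the members with the highest level per length. Cd79a (Ig-alpha) stood at 515 ± 83.3 and 549 ± 35.5 RPKM (reads relative to exon length and library size; SD, n = 3) in Control and Prmt1-null iGBs, and Cd79b (Ig-beta) at 382 ± 40.8 and 437 ± 7.54 RPKM. In normalised counts Cd79a was read at 34747, 41923 and 48203 in Control and 45273, 46634 and 41123 in Prmt1-null libraries, which overlap. Cd79b was read at 26913, 30687 and 33350 in Control and at 34045, 35225 and 34814 in Prmt1-null libraries. All Prmt1-null libraries were above all Control libraries for Cd79b, by 0.19 ± 0.075 on the log2 scale, with an adjusted p of 0.257. Without Control 1 the log2 fold change was 0.12. The Control libraries spread widely for both chains, Control 1, from a male, being the lowest and Control 3 the highest. In the Prmt1-null group the male library, Prmt1-null 3, was the lowest for Cd79a, but Prmt1-null 1, from a female, was for Cd79b. With female mice only the log2 fold change was 0.030 for Cd79a and 0.12 for Cd79b. The part of sex in this spread was not tested. The ratio of Cd79a to Cd79b counts was 1.37 ± 0.0772 in Control and 1.28 ± 0.0841 in Prmt1-null iGBs (exact permutation p = 0.3, n = 3 per group).

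Ptprc, which encodes CD45, the phosphatase that keeps Src family kinases ready, stood at 89.1% of the Control mean without passing the test. Its normalised counts were 70658, 71152 and 69939 in Control and 65917, 63316 and 59480 in Prmt1-null libraries, so the groups did not overlap. The log2 fold change was −0.17 ± 0.060, with an interval from −0.30 to −0.037, and the adjusted p was 0.224. DESeq2 gave the same fold change with an adjusted p of 0.0424, in a test that called 5.33% of its genes.

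**Figure D2:**
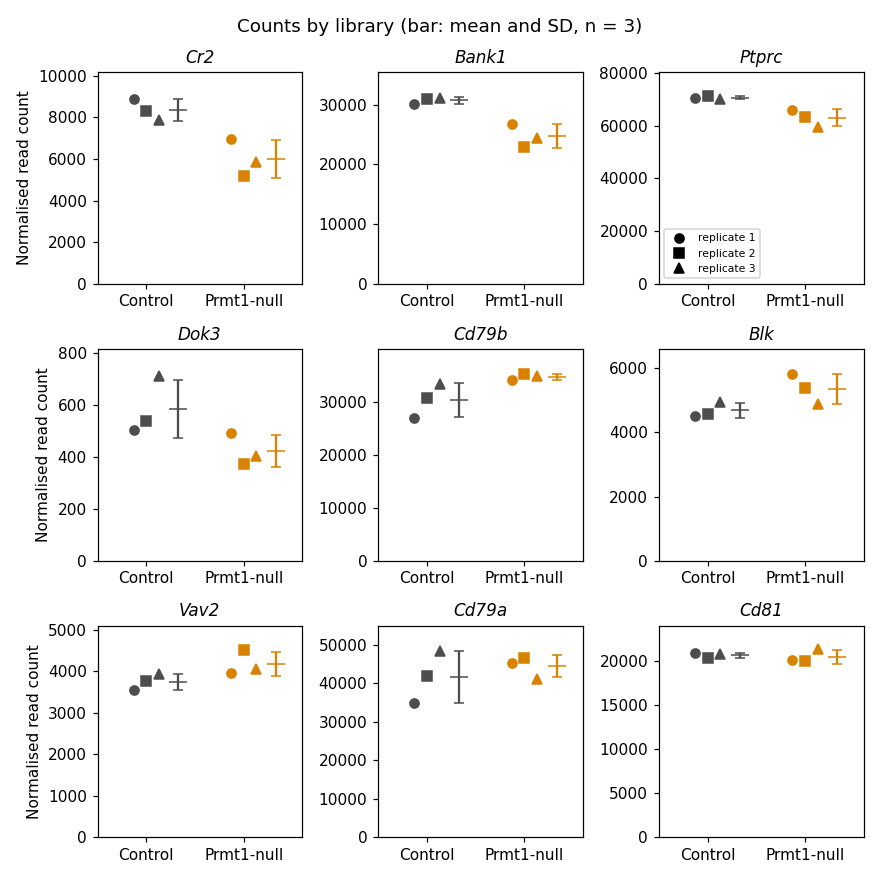
Normalised read count (y axis, linear from 0) of 9 members in each of the 3 Control and 3 Prmt1-null libraries, each library as a symbol and the mean with its SD as a bar. For Cr2, Bank1 and Ptprc the Prmt1-null libraries lie below every Control library, for Cd79b they lie above, and for Cd79a and Cd81 the groups overlap.

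Of the 22 kinases and adaptors, 1 was called lower and 0 higher, against 1.18% of all genes called, and 2 (9.09%) did not overlap between groups, against 19.9%. The group's median log2 fold change was −0.023. The interval of every one of the 22 lay within 1.4-fold. Bank1, an adaptor with ankyrin repeats that links Lyn to calcium mobilisation, was the member called. Its libraries gave 30143, 30897 and 31178 normalised counts in Control and at 26825, 22847 and 24386 in Prmt1-null libraries. The Control libraries were close together and each lay above every Prmt1-null library. The log2 fold change was −0.32 ± 0.068 (SE, n = 3 per group), with an interval from −0.46 to −0.17, and the adjusted p was 0.0403. The call was lost whichever library was left out, where the adjusted p ran from 0.0521 to 0.259 over the 6 fits that each left out 1 library, with log2 fold changes from −0.38 to −0.26. In these fits 31 to 340 genes were called in all, against 216 with every library. It was also lost with the replicate number as a block (adjusted p = 0.0725). DESeq2 gave Bank1 an adjusted p of 0.000112, in a test that called 5.33% of its genes.

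The Src family kinases start the cascade at the ITAMs, and Lyn among them also phosphorylates the inhibitory motifs. Lyn was read at 22777, 21574 and 22840 normalised counts in Control and 21679, 20063 and 21395 in Prmt1-null libraries, which overlap, with a log2 fold change of −0.090 and an adjusted p of 0.572. Blk, the B cell member of the family, was read at 4519, 4582 and 4962 in Control and 5831, 5379 and 4890 in Prmt1-null libraries. Its log2 fold change was 0.20 ± 0.071 with an adjusted p of 0.225, and Prmt1-null 3 lay below Control 3, so the groups overlapped. Fyn had a log2 fold change of 0.12 and an adjusted p of 0.427. The ratio of Lyn to Blk counts was 5.04, 4.71 and 4.60 in Control and 3.72, 3.73 and 4.38 in Prmt1-null libraries. These ratios did not overlap (exact permutation p = 0.1, the smallest possible with n = 3 per group, adjusted to 0.2). Per length, Lyn made up 66.2% ± 0.924 of the summed RPKM of Lyn, Fyn and Blk in Control and 62.1% ± 2.08 in Prmt1-null iGBs, Blk 20.9% ± 0.699 and 23.9% ± 1.41, and Fyn 12.9% ± 0.290 and 14.0% ± 0.719 (SD, n = 3).

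Syk and the Tec kinase Btk, which carry the signal from the ITAMs to phospholipase C, did not pass the test. Syk stood at 23413 ± 1618 and 23482 ± 1678 normalised counts, a log2 fold change of 0.0042 with an interval from −0.15 to 0.16. Btk had a log2 fold change of −0.078 and an interval from −0.20 to 0.044. The adaptor Blnk, the scaffold that brings Btk to phospholipase C gamma 2, was at 0.012, and Plcg2 itself at 0.074. None of these 4 genes passed the test, and in each the groups overlapped. Prkcb, the protein kinase C of this branch, was at −0.065, and Bcl10 and Malt1, which act together on the way to NF-kappaB, were at −0.044 and −0.13. Nfatc1, the transcription factor that calcineurin releases to the nucleus, was at −0.047.

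The Vav exchange factors, which activate Rac below the receptor, included 1 gene whose groups did not overlap. Vav2 was read at 3550, 3758 and 3941 normalised counts in Control and at 3962, 4510 and 4067 in Prmt1-null libraries. Its groups did not overlap, though Prmt1-null 1 and Control 3 were nearly level, and the log2 fold change was 0.16 ± 0.069 with an adjusted p of 0.33. Vav1 was at −0.029 and Vav3 at 0.12, both with overlap. The ratio of Vav1 to Vav2 counts was 1.02, 1.02 and 0.996 in Control and 0.951, 0.815 and 0.910 in Prmt1-null libraries. Here too the groups were apart (exact permutation p = 0.1 with n = 3 per group, adjusted to 0.2). In the summed RPKM of the family, Vav1 took 59.7% ± 0.428 and 56.7% ± 2.08, Vav2 31.5% ± 0.459 and 34.0% ± 1.48, and Vav3 8.82% ± 0.726 and 9.31% ± 0.714 in Control and Prmt1-null iGBs.

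Among the genes of the PI3K and Ras branches no member was called. Pik3cd, the catalytic subunit p110delta that B cells rely on, was at −0.0039 with an interval from −0.20 to 0.19. Its regulatory subunit Pik3r1 was at −0.039 and the adaptor Pik3ap1, known as BCAP, at 0.0079. Grb2, an adaptor that brings Sos1 to Ras, was the kinase or adaptor with the highest level per length, at 151 ± 11.5 and 140 ± 16.1 RPKM. In normalised counts Grb2 was read at 22273, 25567 and 25441 in Control and 25658, 20824 and 21563 in Prmt1-null libraries. The groups overlapped, Prmt1-null 1 being the highest of the 6, and the log2 fold change was −0.11 with an adjusted p of 0.632. Sos1 was at −0.10, Shc1 at −0.017 and Rasgrp3, which diacylglycerol activates, at 0.032.

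Of the 6 inhibitory members 0 were called, against 1.18% of all genes, 1 (16.7%) did not overlap between groups, against 19.9%, and the median log2 fold change was −0.028. Cd22, a sialic acid-binding lectin with ITIMs, was the third highest of all members per length, at 298 ± 3.77 and 290 ± 18.0 RPKM in Control and Prmt1-null iGBs. It was read at 82088, 84083 and 83670 normalised counts in Control and 86328, 80422 and 76292 in Prmt1-null libraries. The spread was wider in the Prmt1-null libraries, which held both the highest and the lowest value, and the log2 fold change was −0.040 with an interval from −0.17 to 0.092. The other receptors with ITIMs, Cd72 and the inhibitory Fc receptor Fcgr2b, were at −0.037 and −0.019, and their groups overlapped.

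Ptpn6 encodes SHP-1, the phosphatase recruited by ITIMs. Its libraries gave 11990, 13466 and 13565 normalised counts in Control and 14851, 13941 and 13315 in Prmt1-null libraries, with a log2 fold change of 0.11 and an adjusted p of 0.522. The groups overlapped, since Prmt1-null 3 lay below Control 2 and 3. Inpp5d, which encodes the lipid phosphatase SHIP1, was at 0.043 with an interval from −0.13 to 0.21. Ratios that set an activating gene against an inhibitory one did not separate the genotypes: that of Syk to Ptpn6 counts was 1.80 ± 0.0395 and 1.67 ± 0.102 (exact permutation p = 0.2, adjusted to 0.32, n = 3 per group), and that of Pik3cd to Inpp5d 0.454 ± 0.0189 and 0.438 ± 0.0322 (exact permutation p = 0.4, as after adjustment). The ratio of Lyn to Ptprc counts, 0.317 ± 0.0125 and 0.335 ± 0.0221, also had an exact permutation p of 0.4 (n = 3 per group).

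Dok3, an inhibitory adaptor, had the smallest p of the inhibitory members and the lowest counts of all 33. It was read at 503, 538 and 711 normalised counts in Control and at 490, 372 and 403 in Prmt1-null libraries. The groups were apart only by the small gap between Control 1 and Prmt1-null 1. The log2 fold change was −0.47 ± 0.16 with a wide interval, from −0.81 to −0.13, and the adjusted p of 0.19 was the smallest among the 31 members not called. With each library left out in turn the log2 fold change ran from −0.59 to −0.30, the latter without Control 3, the highest library.

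**Figure D3:**
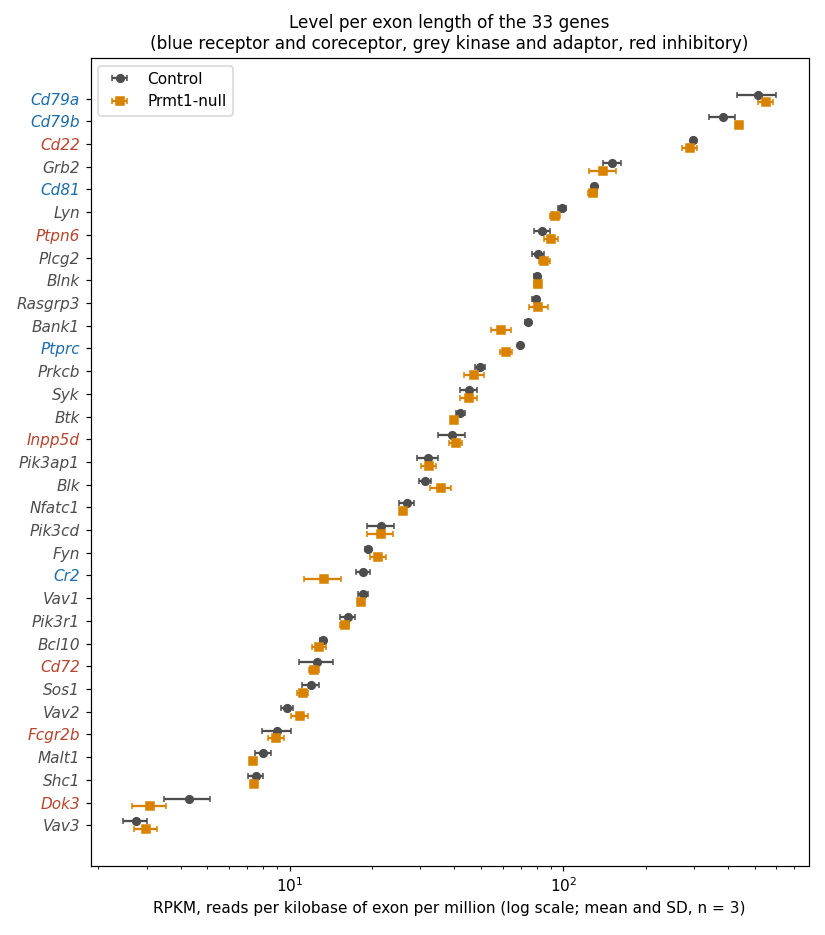
Level per exon length of the 33 genes in RPKM (x axis, log scale), as the mean and SD of the 3 Control libraries (grey circles) and the 3 Prmt1-null libraries (orange squares), ordered by the Control level. Levels run from 2.74 RPKM for Vav3 to 515 RPKM for Cd79a in Control, and the 2 symbols of a gene are visibly apart for Cr2, Bank1 and Dok3.

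The levels per length spread over a wide range. After Cd79a, Cd79b, Cd22 and Grb2 came Cd81 at 129 RPKM and Lyn at 99.2 RPKM in Control iGBs, whereas Vav3 stood at 2.74, Dok3 at 4.28, Shc1 at 7.51 and Malt1 at 8.01 RPKM. Bank1 stood at 74.0 ± 1.29 RPKM in Control and 59.5 ± 4.83 RPKM in Prmt1-null iGBs. Cr2, at 18.6 ± 1.16 and 13.3 ± 2.03 RPKM, was the lowest of the 5 receptor and coreceptor genes. Exons of 6 members share bases with a gene on the opposite strand (Cd81, Lyn, Cd22, Cd72, Fcgr2b and Ptpn6), by 1423 bases for Cd72 with Tesk1 and by 104 to 479 bases for the others. The strand setting of the counting is not given in the sources used here, so reads of such partners may be included in these 6 values.

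**Figure D4:**
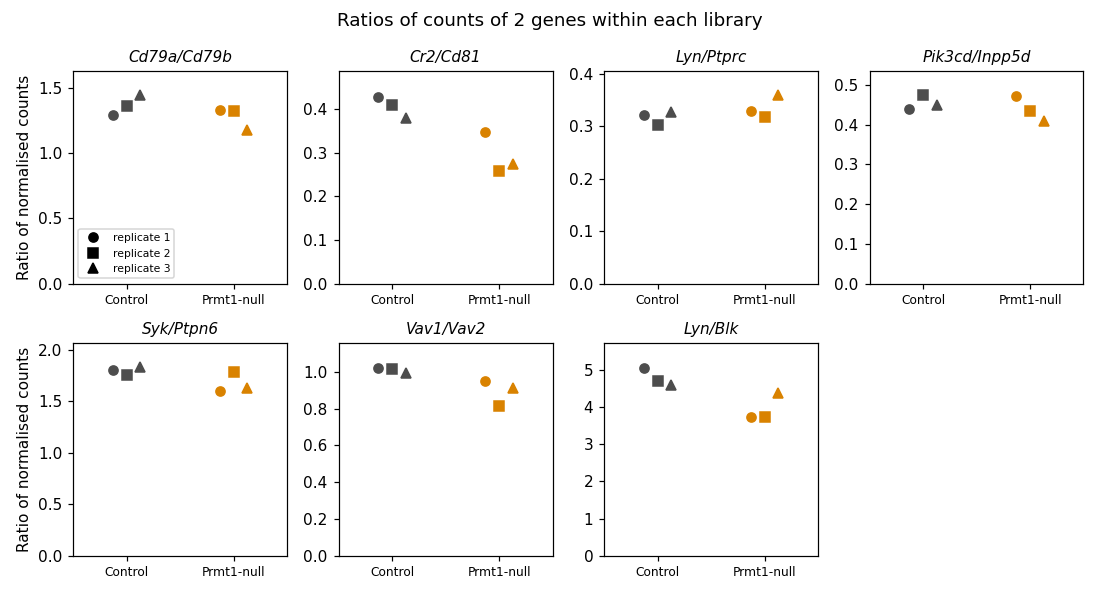
Ratios of the normalised counts of a pair of genes within each library (y axis, linear from 0) for 7 pairs, with 3 Control and 3 Prmt1-null libraries each. The groups do not overlap for Cr2/Cd81, Vav1/Vav2 and Lyn/Blk, each with an exact permutation p of 0.1, and overlap for the other 4.

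Beyond the 33 members, 86 further genes of BCR signalling were listed, and 85 of them were tested (Cd300a, with at most 9 counts in a library, was not). Of these 85, 1 was called, lower, and 0 higher, against 1.18% of all genes. An unadjusted p under 0.05 was found for 15 (17.6%, against 13.5% of all genes) and no overlap between groups for 20 (23.5%, against 19.9%), 10 in each direction. The gene called was Pik3cg, the p110gamma catalytic subunit of PI3K, best known downstream of G protein-coupled receptors. Pik3cg was read at 2629, 2323 and 2695 normalised counts in Control and at 1553, 1588 and 1982 in Prmt1-null libraries. Every Prmt1-null library was lower, with a log2 fold change of −0.58 ± 0.10 (SE) and an adjusted p of 0.0152, and the call was lost without Prmt1-null 1 (adjusted p = 0.111) or Prmt1-null 2 (0.107). In the summed RPKM of the 4 class I catalytic subunits, the member Pik3cd took 54.0% ± 3.91 in Control and 58.8% ± 2.74 in Prmt1-null iGBs, and Pik3cg 13.6% ± 0.954 and 10.1% ± 2.12 (SD, n = 3). A set of 9 transcription factors held genes that respond to receptor signalling, such as Egr1, Fos and Nr4a1. It also held Nfatc2 and Nfatc3, which are relatives of Nfatc1 and not response genes. Of the 9, 0 were called (Egr1 and Fos were with no filter on low counts) and all overlapped between groups. A log2 fold change below 0 was found for 8, Nfatc2 and Nfatc3 among them, as for 9154 of the 18268 genes tested.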

How the data were processed

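Raw counts of reads on the exons of each gene, deposited by the authors for 6 libraries, were used. Per the submitters' processing notes and the study's methods, reads were trimmed with Trimmomatic 0.32, aligned to mm10 (GRCm38) with STAR 2.3.0e and counted with featureCounts 1.4.4. The counts were not normalised, and the strand setting is not given in the sources used here. Groups, sex and replicate numbers came from the labels. The study's methods give another IL-4 dose than the labels.

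In R 4.3.3, 398 chromosome Y genes were left out as in the study's methods, low-count genes were dropped with filterByExpr (minimum count 10), libraries were scaled by TMM (factors 0.985 to 1.01), and 18268 genes were tested with edgeR 4.0.16 (quasi-likelihood test, Benjamini-Hochberg adjustment over all of them). The SE was the log2 fold change divided by the square root of F. RPKM used the union exon length of GENCODE M21. Of the symbols, Cr2 had a second identifier, not in that annotation and kept apart. The method was tested on simulated data whose changes were larger than those of Cr2 and Bank1. That test does not show how often changes of their size are found.

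Members and lists were chosen with earlier results of these data known. Values in every library are given for members called or with an unadjusted p under 0.05 and, per role, the member with the smallest p and the 2 with the highest RPKM. Of other pathway genes, those called are named, with Prmt1 as the genotype check. Egr1, Fos, Nr4a1, Nfatc2 and Nfatc3 are named as examples without values. Some genes that were to be named are not reported here.

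Alternatives were DESeq2 1.42.0 (Wald test), its size factors in edgeR, limma-voom (limma 3.58.1), no filter, no minimum mean count, chromosome Y genes kept, the replicate number as a block, sex as a covariate, and each library left out. Summing both Cr2 identifiers and using female mice only were added after seeing the data. Libraries of a group differed by more than sampling noise (chi-square per degree of freedom 12.2 to 56.5).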

Additional observations from a re-analysis of the deposited data

How the results depend on the processing

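Cr2 and Bank1, and no other member, were called lower with DESeq2's size factors, limma-voom, no filter on low counts, no minimum mean count, chromosome Y genes kept, sex as a covariate and both Cr2 identifiers summed. DESeq2's own test called these and Ptprc, and 0 members were called higher under any alternative. With the replicate number as a block 1 member was called lower (Cr2), Bank1 having a log2 fold change of −0.32 and an adjusted p of 0.0725. Same-numbered libraries come from different mice, and their deviations from the group means correlated at −0.072, 0.048 and −0.077. With female mice only, 0 members were called, 14 (42.4%) did not overlap between groups, against 42.2% of all genes in that fit, the receptor and coreceptor median was −0.034, and Cr2 (−0.41, adjusted p = 0.144) and Bank1 (−0.32, 0.0912) kept their direction. With 1 library left out, 0 to 1 members were called lower, 7 to 12 (21.2% to 36.4%) did not overlap, against 27.9% to 33.3% of all genes in these fits, and 0 to 1 of the other pathway genes were called. The median log2 fold change of the receptor and coreceptor group then ran from −0.045 to 0.010, that of the kinases and adaptors from −0.050 to 0.00042 and that of the inhibitory members from −0.078 to 0.066, so all 3 changed sign. Where a group is left with 2 libraries, fewer values alone make non-overlap more frequent. The number of other pathway genes called was 6 with DESeq2 and 6 with no filter (Egr1 and Fos among the latter), the cause not being tested. Over all genes more were called by these fits too. All genes called numbered 216 (1.18%), against 706 with DESeq2 (5.33% of its 13247 genes) and 675 with no filter. They numbered 151 with the block and 31 to 340 with 1 library left out.

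Members near 0 changed sign, none of them called. Pik3cd was at 0.00067 with no filter and 0.0031 with female mice only, where Pik3r1 was at 0.033. With 1 library left out the log2 fold change ran from −0.020 to 0.21 for Cd79a, −0.045 to 0.010 for Cd81, −0.045 to 0.058 for Syk, −0.0072 to 0.035 for Blnk, −0.041 to 0.086 for Pik3ap1 and −0.082 to 0.081 for Pik3cd. It ran from −0.076 to 0.013 for Pik3r1, −0.059 to 0.028 for Shc1, −0.027 to 0.082 for Rasgrp3, −0.082 to 0.0053 for Bcl10 and −0.083 to 0.0038 for Nfatc1. For Cd22 it was −0.084 to 0.00098, for Cd72 −0.12 to 0.080, for Fcgr2b −0.11 to 0.052 and for Inpp5d −0.014 to 0.14. Without a change of sign, it ran from 0.12 to 0.27 for Cd79b, −0.12 to −0.051 for Lyn, −0.20 to −0.044 for Grb2, −0.056 to −0.0030 for Vav1, 0.10 to 0.20 for Vav2 and 0.067 to 0.21 for Vav3. For Sos1 it was −0.15 to −0.045, for Plcg2 0.034 to 0.11, for Prkcb −0.11 to −0.0013, for Malt1 −0.18 to −0.083, for Ptpn6 0.058 to 0.15 and for Dok3 −0.59 to −0.30. These, like the members that changed sign, moved by over 1.5 times. The 3 libraries per group limit what can be told apart. The biological coefficient of variation of 0.154 is common to all genes tested and is not a value for the members, whose median SE was lower (0.068 against 0.14).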
